A study of Mus musculus with 12 samples.

Results

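The genes described here make cholesterol in the liver, sense it, move it within cells, and exchange it with lipoproteins. They were chosen by name, as a list of 33 genes for cholesterol synthesis, uptake and esterification, with earlier results of these data known. Of the 33, 30 were measured among the 18193 genes represented by a probe set naming 1 gene, each by its brightest probe set. Acat2, Soat1 and Soat2 were not measured here by such a probe set, so the esterification step, which Soat1 and Soat2 catalyse, is not described. RNA came from 6 hepatocellular carcinomas (HCC) and 6 normal livers. The mice were B6C3F1, a hybrid made by crossing C57BL/6 with C3H, in which liver tumours often arise with age. All were 2 years old, had been given no treatment, and came from a bioassay of the National Toxicology Program. The tumours had arisen spontaneously. Each sample was measured on 1 single-colour Affymetrix array. The labels do not give the sex of the mice, the cell content of the tumours, or whether the normal livers came from animals that also bore a tumour. They do not state that each array is a separate animal, so p-values measure the spread between these samples.

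Cholesterol is built from acetyl-CoA through mevalonate and the isoprenoids to squalene, which is closed into the first sterol and then trimmed, reduced and desaturated to cholesterol. When sterols in the endoplasmic reticulum run low, the escort protein Scap carries the transcription factor SREBP2, the product of Srebf2, to the Golgi. There it is cut, and the released part switches on most genes of synthesis and of lipoprotein uptake. When sterols are plentiful, the Insig proteins hold Scap back. The liver is a main site of synthesis, takes cholesterol up from lipoproteins, and disposes of it in bile directly or as bile acids.

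Levels are log2(intensity + 16) after quantile normalization, on which 1 unit is a doubling, except near the floor of 4.0, where changes are understated. All 30 measured members had group medians above 8. Of 5 measured hepatocyte markers (Alb, Ttr, Serpinc1, Fgb and Cps1) none passed the test between groups (limma adjusted p of 0.177 or more). Their summed intensity was 225184 to 231504 in normal liver and 185175 to 243859 in HCC. Alb, Ttr, Serpinc1 and Fgb were between 15.24 and 15.88 on every array, near the top of the scale. Cps1 was at -0.86 ± 0.40 (SE), with SDs of 1.07 in HCC and 0.05 in normal liver. These markers do not show that hepatocyte content was equal. The arrays also divided by Y-linked signal: Eif2s3y, Kdm5d and Uty were low in normal 1, normal 3, HCC 1 and HCC 4 and high on the other 8 arrays. Xist, on the X chromosome, divided the same arrays the other way. It was between 11.79 and 12.70 in normal 1, normal 3, HCC 1 and HCC 4, and between 5.12 and 7.56 on the other 8. In bulk tissue, fewer cells of a type and less RNA per cell cannot be told apart.

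The promoters of the synthesis enzymes carried a shared sequence feature, shown here because these enzymes are known to be driven together. SREBP2 acts with the factor NF-Y, whose box is CCAAT, or ATTGG on the other strand. In promoters taken from RefSeq (build GRCm38.p6, 250 bases before to 50 after each listed start, both strands searched), the box was found in 16 of the 17 synthesis enzymes with an entry, or 94.1%. Entries were matched by symbol for 26 of the 33 listed members. Of these 26, 22 had the box (84.6%), so it was not confined to the synthesis enzymes. Over all 27025 genes with an entry it was found in 41.1%, counting a gene if any of its promoters had it. The sterol regulatory element, searched as TCACNCCAC on both strands, was found in 1 of the 17 synthesis enzymes, Hmgcs1, and in 1.44% of all genes. A match is a description of the sequence, not a bound site. The Hmgcs1 window holding the element is chr13:119690174-119690262 on the + strand, with the element and an NF-Y box in capitals. The element began 137 bases before the start and the box 176, so they did not overlap.
Hmgcs1: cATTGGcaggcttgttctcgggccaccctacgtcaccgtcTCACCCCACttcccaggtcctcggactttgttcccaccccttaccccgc

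For the 4 enzymes past the test in HCC, and for Lss and Cyp51, which belong to the same branch and did not pass, the last 100 bases before the start are given below with NF-Y boxes in capitals. They lie at chr19:6067851-6067950 on the - strand for Tm7sf2, chrX:8193513-8193612 on the - strand for Ebp, and chr8:64733579-64733678 on the - strand for Msmo1. Those of Hsd17b7 lie at chr1:169969206-169969305 on the - strand, of Lss at chr10:76531505-76531604 on the + strand, and of Cyp51 at chr5:4104698-4104797 on the - strand. Each window held at least 1 box, whether or not its gene passed the test, and those of Msmo1 and Hsd17b7 held 2.
Tm7sf2: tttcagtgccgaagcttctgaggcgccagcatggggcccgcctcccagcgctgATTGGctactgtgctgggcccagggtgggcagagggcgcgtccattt
Ebp: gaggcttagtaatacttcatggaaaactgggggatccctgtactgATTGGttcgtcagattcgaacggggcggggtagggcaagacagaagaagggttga
Msmo1: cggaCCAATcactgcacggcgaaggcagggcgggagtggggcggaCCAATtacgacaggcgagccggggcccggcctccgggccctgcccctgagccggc
Hsd17b7: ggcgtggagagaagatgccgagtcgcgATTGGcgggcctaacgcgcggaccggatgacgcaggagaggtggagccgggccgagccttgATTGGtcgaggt
Lss: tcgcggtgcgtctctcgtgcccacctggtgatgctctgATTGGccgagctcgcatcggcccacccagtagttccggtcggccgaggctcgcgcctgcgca
Cyp51: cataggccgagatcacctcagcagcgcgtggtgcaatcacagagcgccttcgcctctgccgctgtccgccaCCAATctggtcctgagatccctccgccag

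Between HCC and normal liver, 2 of the 30 measured members rose and 5 fell at a limma adjusted p under 0.05, while 23 did not pass. Scarb1 and Npc2 were higher in HCC, and Pltp, Tm7sf2, Msmo1, Hsd17b7 and Ebp were lower. The share of members called higher was near that of all genes (6.48%), and the share called lower, 16.7%, stood against 7.24% of all genes. All genes include many dimmer than the members: the median gene was at 7.71, and every member had group medians above 8. With dim genes filtered out, 4 members were higher and 8 lower, against 1432 and 1678 of the 9689 genes kept. The median log2 difference was -0.20 over the members and -0.04 over all genes. With the deposited scaling, and likewise with median centring, the split was 1 higher and 6 lower. Over all 18193 genes the deposited scaling gave 1404 higher and 1088 lower, and median centring 1071 and 1295, against 1179 and 1318 as reported. All 7 differences kept their direction within the 8 arrays with Y-linked signal and within the 4 without it. Within the 8 arrays, 2 were called higher and 0 lower (limma adjusted p of 0.0516 to 0.228 for the 5), and within the 4 arrays none was called. Over all 18193 genes the 8 arrays gave 575 higher and 563 lower, and the 4 arrays 40 and 37. Complete separation of the groups was seen for Scarb1, where all 6 HCC lay above all 6 normal livers, against 4.25% of all genes. It was seen in the other direction for Pltp, Tm7sf2 and Ebp, against 4.5% of all genes.

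**Figure D1:**
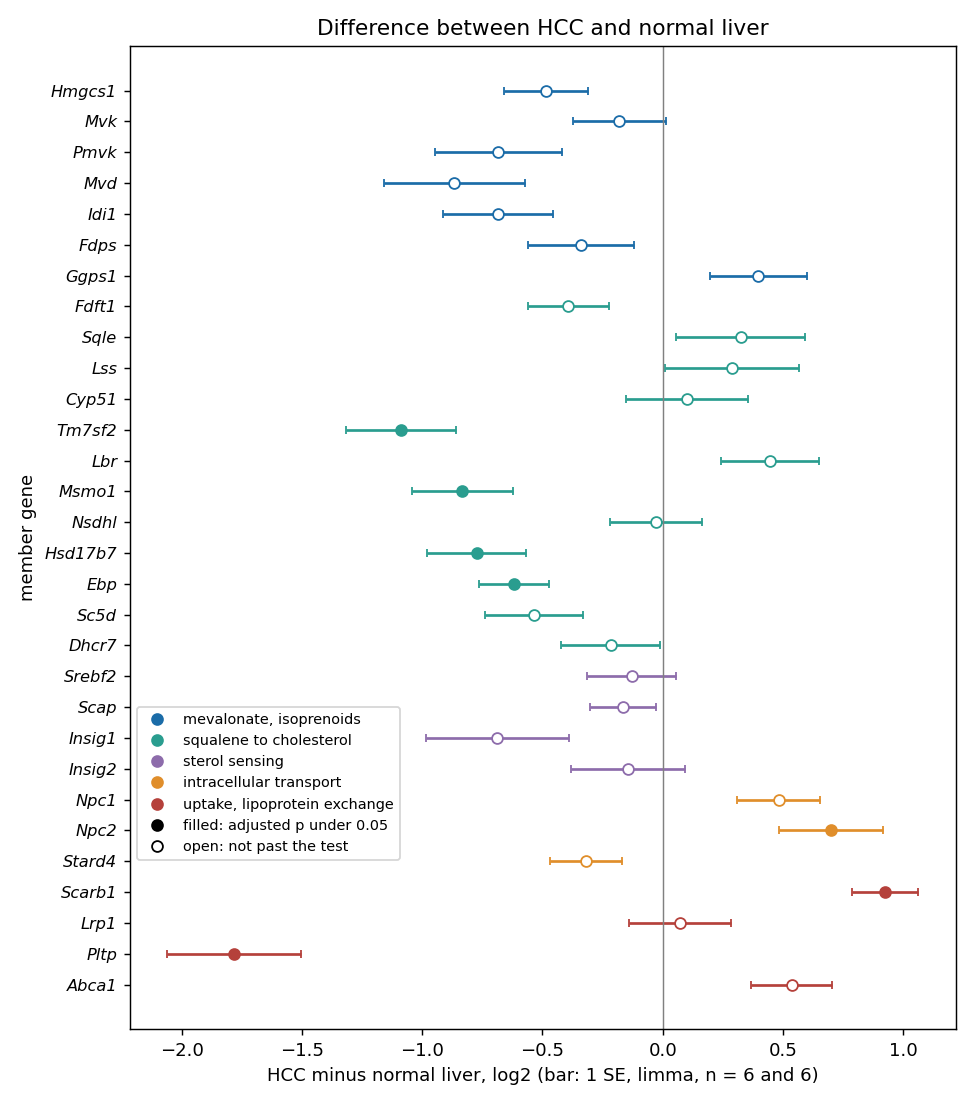
Difference between HCC and normal liver for the 30 measured members (x axis, log2 scale; bars are 1 SE from limma, 6 arrays per group), coloured by role and filled where the adjusted p is under 0.05. Pltp lies furthest below 0 at -1.78 and Scarb1 furthest above it at 0.93, and the 4 filled synthesis enzymes all act after squalene.

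None of the 7 measured enzymes of the mevalonate and isoprenoid steps passed the test, and the differences of 6 of them were negative (median -0.48 over the 7). At an unadjusted limma p under 0.05 there were 4 of 7, against 28.5% of all genes, and an exact Wilcoxon test called none after adjustment. Mvd, which makes isopentenyl diphosphate, had the most negative value, -0.87 ± 0.29 (SE, limma adjusted p = 0.0705). Its levels were 9.54, 10.19 and 10.88 as lowest, median and highest normal liver, and 8.43, 9.36 and 10.21 in HCC. The lowest tumour was HCC 5, HCC 2 and HCC 4 lay inside the normal range, and the groups overlapped. Idi1, which isomerises that product, ran from 12.80 to 13.70 in normal liver with a median of 13.46, and from 12.04 to 13.19 in HCC with a median of 12.55. Its difference of -0.68 ± 0.23 did not pass either (limma adjusted p = 0.066). Hmgcs1, which makes HMG-CoA for this pathway, ran from 14.41 to 15.09 in normal liver (median 14.92) and from 14.10 to 14.84 in HCC (median 14.23). HCC 2 and HCC 4 lay inside the normal range and the other 4 tumours below it.

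Hmgcs1 and Idi1 were past the threshold when HCC 2, their highest tumour, was left out (limma adjusted p = 0.0334 and 0.0343). So was Mvd without HCC 4, its highest tumour (0.0309). In the other 11 fits that left out 1 array, Hmgcs1, Idi1 and Mvd did not pass (limma adjusted p up to 0.153, 0.125 and 0.135). The kinase Pmvk was at -0.68 ± 0.26 and the farnesyl diphosphate synthase Fdps at -0.34 ± 0.22, with HCC 2 above every normal liver in Fdps. The mevalonate kinase Mvk was at -0.18 ± 0.19. Ggps1, whose product is attached to proteins and is not on the route to cholesterol, was the only one of the 7 with a positive difference (0.40 ± 0.20, adjusted p = 0.221). Of its other 3 probe sets, 2 had negative differences, -0.11 and -0.30, so its direction is uncertain.

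The enzymes that make squalene and turn it into cholesterol divided: 4 of 12 fell, none rose, and the differences of 4 others were positive without passing. The share that fell was 33.3%, against 7.24% of all genes, and 6.48% of all genes rose. The median difference of the 12 was -0.30. That of the 7 mevalonate and isoprenoid enzymes, none of which passed, was more negative at -0.48. Tm7sf2, a sterol C14-reductase of the endoplasmic reticulum, ran from 13.10 to 13.91 in normal liver (median 13.34) and from 11.71 to 12.82 in HCC (median 12.41). All 6 tumours lay below all 6 normal livers, with HCC 3 and HCC 1 lowest. The fall was 1.09 ± 0.23 in log2 units (limma adjusted p = 0.00808), a 2.13-fold lower level. Ebp, the isomerase that shifts the ring double bond, ran from 13.80 to 14.10 in normal liver (median 13.89) and from 12.82 to 13.62 in HCC (median 13.33). The groups did not overlap, and HCC 1 stood lowest. It fell by 0.62 ± 0.15 (limma adjusted p = 0.0149).

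Msmo1, the methylsterol oxidase that starts removal of the C4 methyl groups, ran from 13.49 to 14.44 in normal liver (median 14.16) and from 12.84 to 13.90 in HCC (median 13.23). Only HCC 4 lay inside the normal range. It fell by 0.83 ± 0.21 (limma adjusted p = 0.0206). Hsd17b7, the 3-ketosteroid reductase of the same C4 demethylation, ran from 11.33 to 11.86 in normal liver (median 11.43) and from 10.31 to 11.45 in HCC (median 10.51). HCC 6 lay within the normal range and HCC 2 below it at 11.15, while the other 4 tumours were between 10.31 and 10.61. It fell by 0.77 ± 0.21 (limma adjusted p = 0.026), and 2 of its other 3 probe sets were also called (-0.89 and -0.79, limma adjusted p = 0.014 and 0.0481 over 34945 probe sets). The call of Hsd17b7 was lost without HCC 3, HCC 4, normal 3 or normal 4 (adjusted p up to 0.0575), and with an exact Wilcoxon test (adjusted p = 0.117). Msmo1 lost its call with the mean of all its probe sets (adjusted p = 0.197).

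Nsdhl, the dehydrogenase that acts between Msmo1 and Hsd17b7 in C4 demethylation, gave -0.03 ± 0.19 (limma adjusted p = 0.95). Sqle, Lss and Cyp51, which act in that order, did not pass either. Sqle, the squalene epoxidase, ran from 11.24 to 12.32 in normal liver (median 12.09) and from 11.69 to 12.88 in HCC (median 12.07), a difference of 0.32 ± 0.27. HCC 2 and HCC 6 were above every normal liver. Lss, which closes the ring to lanosterol, ran from 10.69 to 11.54 in normal liver (median 11.04) and from 10.62 to 12.40 in HCC (median 11.24), a difference of 0.29 ± 0.28. HCC 2 was highest and HCC 5 lowest. Cyp51, the lanosterol 14-demethylase, was at 0.10 ± 0.25, and its sign turned with median centring (-0.029), with the mean of its probe sets (-0.25) and without normal 4 (-0.018). Fdft1, which makes squalene, was at -0.39 ± 0.17 (adjusted p = 0.147).

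The last steps gave Sc5d, the C5-desaturase, at -0.53 ± 0.20 (adjusted p = 0.103) and Dhcr7, the final reductase, at -0.22 ± 0.21 (adjusted p = 0.545). Sc5d lay below every normal liver in 5 tumours and above every one in HCC 2. Without HCC 2 its limma adjusted p was 0.00689. In the other 11 fits that left out 1 array it did not pass (limma adjusted p up to 0.19). The other 2 probe sets of Sc5d passed the test at -1.37 and -1.04 (limma adjusted p = 0.0168 and 0.0455 over probe sets), and the mean of its probe sets gave -0.98 (adjusted p = 0.0256).

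Tm7sf2 shares its reaction with Lbr, the lamin B receptor of the inner nuclear membrane, whose membrane part is also a sterol C14-reductase. Lbr ran from 9.72 to 10.53 in normal liver (median 9.96) and from 10.11 to 11.09 in HCC (median 10.57). Its difference was 0.45 ± 0.20 and did not pass (adjusted p = 0.169). HCC 1, HCC 4 and HCC 6 were above every normal liver. The log2 level of Tm7sf2 minus that of Lbr on the same array was 3.14 to 3.68 in normal liver (median 3.29) and 1.12 to 2.72 in HCC (median 1.68). This pair was chosen after its values were seen, so the shift of -1.53 is given with no test. The offset between probe sets has no meaning by itself.

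**Figure D2:**
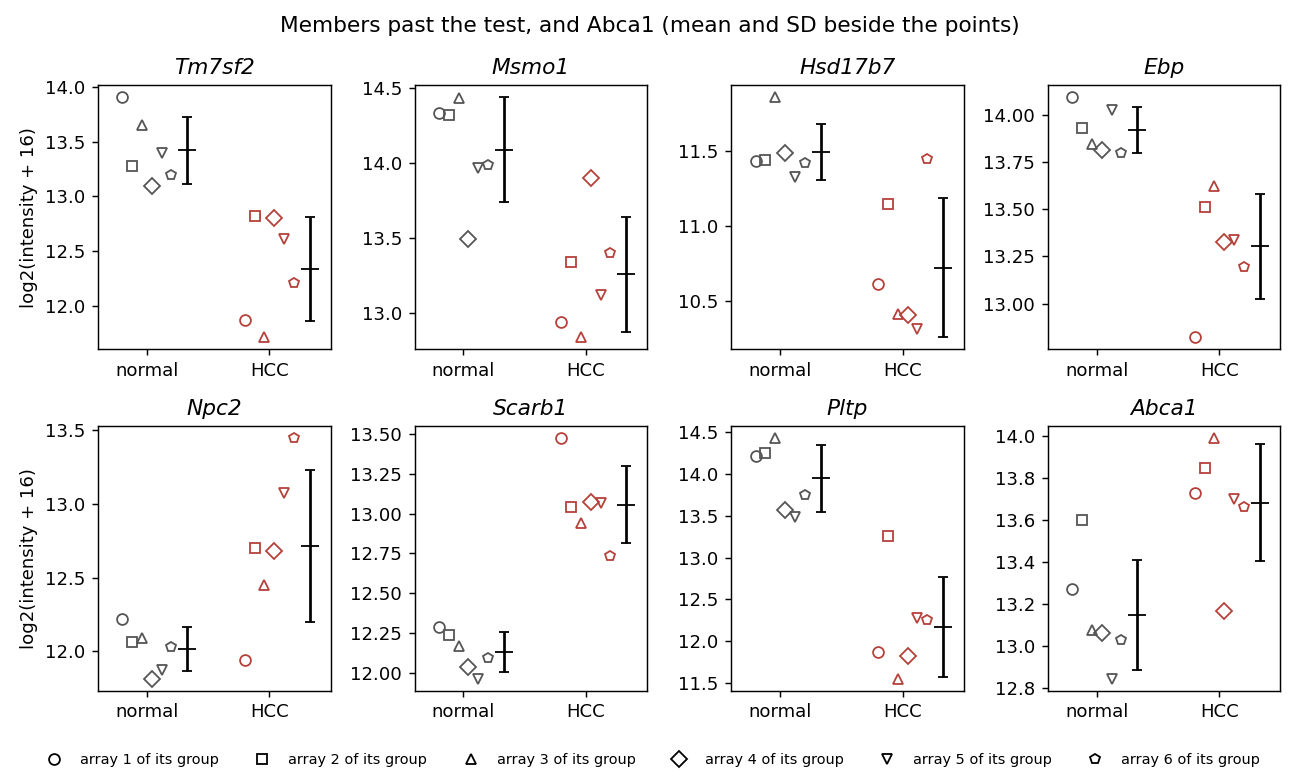
Levels of the 7 members past the test, and of Abca1, on each array (y axis, log2(intensity + 16), a separate scale in each panel that does not start at 0; symbols give the array's number within its group, and the bar beside the points is the mean and SD of 6). Scarb1, Pltp, Tm7sf2 and Ebp show no overlap between groups, while HCC 4 in Msmo1, HCC 6 in Hsd17b7 and HCC 1 in Npc2 lie in the range of normal liver.

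None of the 4 sterol sensors and regulators passed the limma test, and all 4 differences were negative. At an unadjusted p under 0.05 there was 1 of 4, Insig1, near the 28.5% of all genes, and an exact Wilcoxon test called none. Insig1, which is itself a target of SREBP2 and holds Scap in the endoplasmic reticulum, ran from 11.97 to 13.94 in normal liver (median 12.63) and from 11.67 to 12.63 in HCC (median 12.11). Its highest value was that of normal 3, and the groups overlapped. The difference was -0.69 ± 0.30 (limma adjusted p = 0.148). It was -1.63 among the arrays without Y-linked signal and -0.21 among those with it, and the interaction did not pass (1.42 ± 0.47, adjusted p = 0.383). Insig2, the paralogue that is regulated in another way, was at -0.14 ± 0.24, with HCC 2 highest and HCC 1 lowest. Scap was at -0.17 ± 0.14. Srebf2 was at -0.13 ± 0.18, but its other probe set was at 0.16 and the mean of both at 0.017, so its sign is not settled. The activity of SREBP2 depends on its cleavage, which these arrays do not measure.

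Of 3 measured genes of intracellular cholesterol transport, 1 rose, Npc2, and none fell. Npc2, the soluble sterol carrier of the lysosome, ran from 11.81 to 12.22 in normal liver (median 12.05) and from 11.94 to 13.45 in HCC (median 12.69). The order among tumours ran from HCC 1, inside the normal range, to HCC 6. It rose by 0.70 ± 0.22 (limma adjusted p = 0.0497), just past the threshold. That call was lost without any single array except HCC 1 (adjusted p up to 0.0978), under the deposited scaling (0.0649) and under median centring (0.108). Its difference was 0.97 within the arrays with Y-linked signal and 0.16 within those without it. Another probe set of Npc2 was at 0.73 (adjusted p = 0.0561 over probe sets).

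Npc2 is also abundant in macrophages. Of 11 markers of Kupffer cells and macrophages, none was called higher and the Kupffer cell genes Clec4f and Timd4 were lower. The others did not pass and went both ways. Cd68, C1qa, C1qb and Lyz2 were at 1.34, 0.83, 0.81 and 0.78, and Adgre1 at 0.03. Vsig4, Cd5l, Marco and Csf1r were at -1.49, -0.84, -0.52 and -0.30. The summed intensity of the 11 markers was 9402 to 21686 in normal liver and 7145 to 42345 in HCC. It was lowest in HCC 1 and highest in HCC 6, the same tumours that were lowest and highest in Npc2. The summed intensity of 5 lymphocyte markers was likewise lowest in HCC 1 and highest in HCC 6. The 6 markers of stellate cells and fibroblasts had a summed intensity of 7707 to 11919 in normal liver and 5149 to 31498 in HCC. That sum was also highest in HCC 6 but lowest in HCC 2, where Npc2 was at 12.70, above every normal liver. The part of these cells in the level of Npc2 was not tested. Npc1, the membrane partner that receives cholesterol from Npc2, ran from 10.19 to 10.78 in normal liver (median 10.60) and from 10.55 to 11.56 in HCC (median 10.99). In 5 tumours it lay above every normal liver, with HCC 3 highest and HCC 2 the exception, but 0.48 ± 0.17 did not pass (adjusted p = 0.0838). Without HCC 2 its limma adjusted p was 0.0331. In the other 11 fits that left out 1 array Npc1 did not pass (limma adjusted p up to 0.155). Stard4, a cytosolic sterol carrier, was at -0.32 ± 0.15 (adjusted p = 0.179).

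Uptake and lipoprotein exchange held both the largest rise and the largest fall of the members. Scarb1, the receptor SR-BI through which the liver takes cholesteryl ester from HDL, ran from 11.96 to 12.29 in normal liver (median 12.13) and from 12.73 to 13.47 in HCC (median 13.05). Every tumour was above every normal liver, with HCC 1 highest and HCC 6 lowest. The rise was 0.93 ± 0.14 in log2 units, 1.9-fold (limma adjusted p = 0.0011). Its other 2 probe sets rose by 0.98 and 1.004 (limma adjusted p = 0.00346 and 0.00216 over probe sets), and its call held without any single array (adjusted p up to 0.00388).

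Pltp, the plasma phospholipid transfer protein that remodels HDL, moved the other way. It ran from 13.48 to 14.43 in normal liver (median 13.98) and from 11.55 to 13.26 in HCC (median 12.06). HCC 2 was the highest tumour and still below every normal liver, and the next, HCC 5, was at 12.27. The fall was 1.78 ± 0.28 on the log2 scale, 3.44-fold (limma adjusted p = 0.00161), and its other probe set fell by 1.42. Among the 8 arrays with Y-linked signal the difference was -1.43 (limma adjusted p = 0.0516), and among the 4 without it -2.48 (0.0527). Pltp, Scarb1 and Tm7sf2 were each called with every single array left out, as were Ebp and Msmo1.

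Abca1, which exports cholesterol to nascent HDL, ran from 12.84 to 13.60 in normal liver (median 13.07) and from 13.17 to 13.99 in HCC (median 13.72). In 5 tumours it was above every normal liver, and HCC 4 was not. The difference of 0.54 ± 0.17 lay just outside the threshold (limma adjusted p = 0.0519). Without HCC 4, the lowest tumour, the limma adjusted p was 0.021, and Abca1 passed without normal 2 too. In the other 10 fits that left out 1 array it did not (limma adjusted p up to 0.11). Lrp1, the receptor for lipoprotein remnants, was at 0.07 ± 0.21 (adjusted p = 0.868), with a sign that turned under median centring (-0.036).

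**Figure D3:**
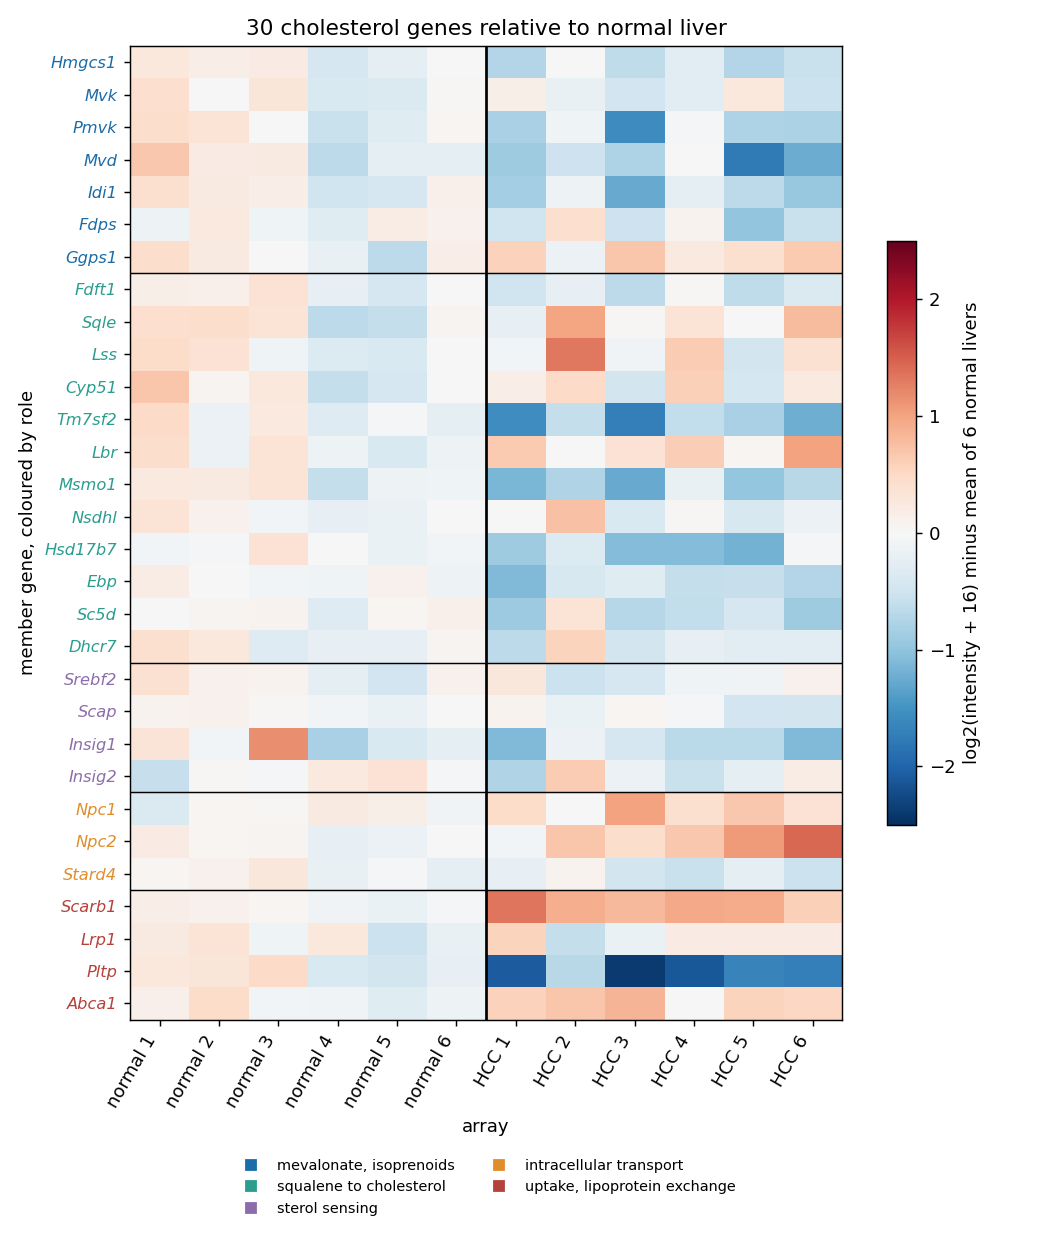
Level of the 30 measured members on each of 12 arrays minus the mean of the 6 normal livers (colour, log2 scale, red higher and blue lower), with rows grouped by role. Scarb1 is red and Pltp, Tm7sf2 and Ebp are blue in all 6 HCC, while Sqle, Lss, Nsdhl, Sc5d and Dhcr7 are red in HCC 2.

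Tumour by tumour, the synthesis enzymes were high in HCC 2 and HCC 4 relative to the other tumours. The mean of the 19 measured enzymes, set against the mean of normal liver, was 0.078 for HCC 2 and -0.084 for HCC 4. HCC 6 followed at -0.31 and HCC 1 at -0.49, with HCC 5 at -0.55 and HCC 3 lowest at -0.59. Normal livers themselves ran from -0.35 in normal 4 and -0.25 in normal 5 to 0.33 in normal 1, so HCC 2, HCC 4 and HCC 6 lay inside the normal range of this mean and the other 3 below it. Among the tumours HCC 2 had the highest level of 9 of the 19 enzymes and HCC 4 of 5. HCC 3 had the lowest level of 6, and HCC 1 and HCC 5 of 5 each. Among the normal livers, normal 1 had the highest level of 13 and normal 4 the lowest of 12. The enzymes of 1 array share that array's RNA and scaling, so these counts are a description.

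Glul, a classical target of beta-catenin, differed between these 2 tumours. It was at 11.75 in HCC 2 and 15.10 in HCC 4, against 13.29 to 14.33 in normal liver. HCC 1, with Glul at 15.17, and HCC 3, with 11.40, were both among the low tumours in the mean of the enzymes. HCC 2 had Y-linked signal and HCC 4 did not.

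**Figure D4:**
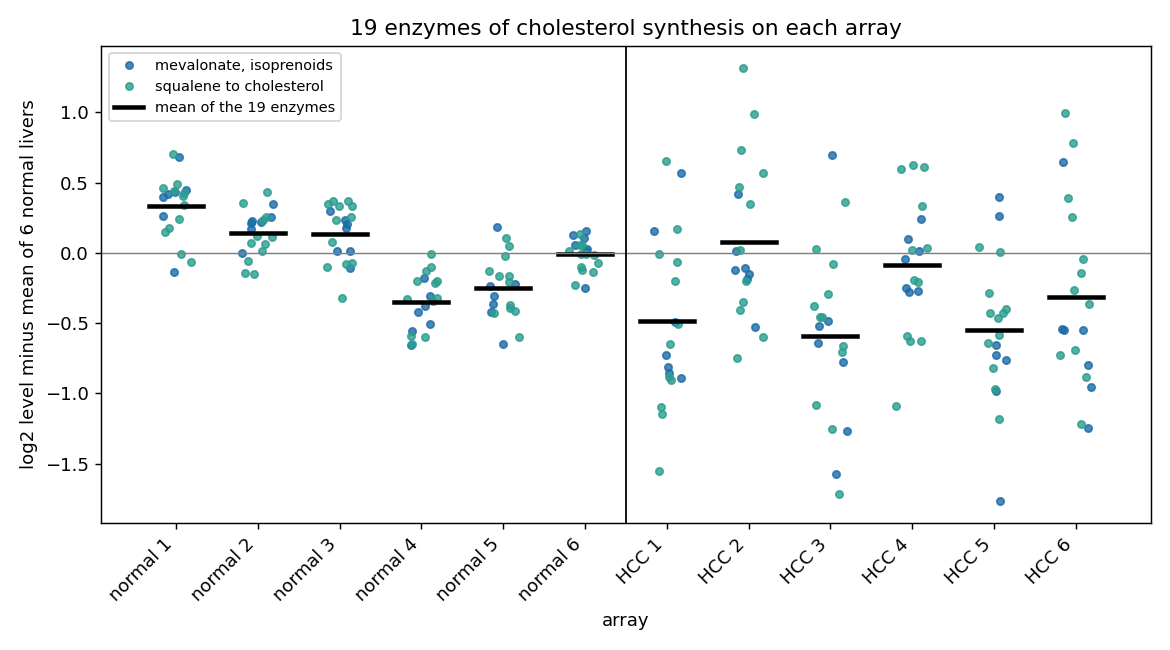
Level of each of the 19 measured synthesis enzymes on each array minus the mean of the 6 normal livers (y axis, log2 scale), with the mean of the 19 as a black bar. The bar is at 0.078 in HCC 2 and at -0.59 in HCC 3, and single enzymes within HCC 2 spread from -0.75 (Msmo1) to 1.32 (Lss).

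Set against the range of the normal livers, HCC 2 had 10 of 30 members above that range (20.1% of all genes were) and 7 below (21.8% of all genes). The 10 were Fdps, Sqle, Lss, Nsdhl, Sc5d, Dhcr7, Insig2, Npc2, Scarb1 and Abca1, and the 7 were Tm7sf2, Msmo1, Hsd17b7, Ebp, Srebf2, Lrp1 and Pltp. HCC 4 had 5 above (21.7%) and 6 below (26.4%), near or under the share of all genes. In the other 4 tumours about as many members as in all genes, or fewer, were above the range, and more were below it. HCC 1 had 6 above (22.2% of all genes) and 15 below (24.1%). HCC 3 had 5 above (22.9%) and 16 below (25.6%). HCC 5 had 4 above (20.8%) and 16 below (24.3%). HCC 6 had 7 above (24.8%) and 14 below, where 30% of all genes were below.

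The SD among tumours was larger than that among normal livers for 24 of the 30 members (80%), against 64.7% of all genes. The median SD of the members was 0.41 in HCC and 0.30 in normal liver, and that of all genes 0.45 and 0.34. The exceptions among the members included Insig1, with SDs of 0.38 in HCC and 0.68 in normal liver. No member passed a test of whether the HCC difference varied with Y-linked signal (limma interaction, 0 of 30), against 0.154% of all genes. At an unadjusted p under 0.05 there was 1 of 30, Insig1, against 8.63% of all genes.

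Other genes of cholesterol handling, taken from a list of 35 of which 30 were measured, gave 2 higher (6.67%, against 6.48% of all genes) and 6 lower (20%, against 7.24%). Export to bile and movement from the plasma membrane held both rises. Abcg5, a subunit of the canalicular sterol exporter, rose by 1.003 ± 0.25 (limma adjusted p = 0.0203). Its difference was 1.39 within the arrays with Y-linked signal and 0.23 within those without it (limma adjusted p = 0.022 and 0.666). The interaction had an unadjusted limma p of 0.022 and did not pass (adjusted p = 0.469). Its partner Abcg8 was at 0.10 ± 0.17 and did not pass, and is named after its value was seen. Gramd1b, a carrier of cholesterol from the plasma membrane to the endoplasmic reticulum, rose by 1.28 ± 0.32 (adjusted p = 0.02). Stard5, a sterol and bile acid carrier, fell by 1.13 ± 0.23 (adjusted p = 0.00795), with all 6 HCC below all 6 normal livers.

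Of 5 genes that convert cholesterol to bile acids or oxysterols, 3 fell, namely Cyp7a1, Cyp7b1 and Cyp27a1, by 3.41, 2.32 and 1.29 (limma adjusted p = 0.0112, 0.0161 and 0.0302). Cyp39a1 and Ch25h went the other way, at 1.32 ± 0.44 and 0.97 ± 0.43, and did not pass (limma adjusted p = 0.0625 and 0.16). Both are named after their values were seen. The call of Cyp27a1 was lost in 9 of the 12 fits that left out 1 array. Cyp7a1, which commits cholesterol to bile acids, was at 11.16 in HCC 1 and 11.35 in HCC 4 and between 7.10 and 8.05 in the other tumours. HCC 1 and HCC 4 are the tumours without Y-linked signal. They also had the highest Glul of the tumours (15.17 and 15.10). HCC 6, with Y-linked signal, had Glul at 14.62 and Cyp7a1 at 7.78. Whether these levels go with Glul or with Y-linked signal was not tested. Among normal livers, Cyp7b1 was at 12.03 in normal 1 and 12.36 in normal 3. It was between 14.04 and 14.36 in the normal livers with Y-linked signal. Within the arrays with that signal and within those without it, the difference was -4.58 and -1.07 for Cyp7a1, -3.34 and -0.29 for Cyp7b1, and -1.88 and -0.12 for Cyp27a1. The 3 interactions had unadjusted p of 0.000831, 0.00428 and 0.000802 and did not pass after adjustment over all genes (limma adjusted p = 0.141, 0.285 and 0.139). Of 7 regulators only Srebf1, which encodes the SREBP1 proteins of fatty acid synthesis, passed, with a fall of 0.51 ± 0.14 (limma adjusted p = 0.0325) that was lost in 7 of those fits. Of 7 genes that use isoprenoids, Pdss2 of coenzyme Q synthesis fell by 0.73 ± 0.19 (limma adjusted p = 0.0248), a call lost without normal 4 or normal 5.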

How the data were processed

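Intensity values, as deposited by the authors, were linear signals of 12 single-colour Affymetrix arrays for 45101 probe sets, from 0.104 to 82665.9, found here to share a 2% trimmed mean of 500.0. Per the labels' protocols, 1 microgram of total RNA was labelled with biotin after one-cycle cDNA synthesis. For the probe summary, the method is not given in those protocols. Array medians differed (log2 6.76 to 7.03), so log2(intensity + 16) was quantile normalized. The 64 control probe sets were dropped. Of the others, 34945 named 1 gene, 932 several and 9160 none. The brightest probe set stood for each gene. Depth here means the number of arrays, 6 per group, which limits precision.

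HCC and normal liver were compared over all 18193 genes with limma 3.58.1 in R 4.3.3 (lmFit, eBayes, two-sided, Benjamini-Hochberg, threshold 0.05). Differences are ± SE. Python 3.11.15 made tables, motif searches and figures. All members were named, and other pathway genes where past the test, with Abcg8, Cyp39a1 and Ch25h added. The members, lists and tests were chosen with earlier results of these data known. Pairs of members and the 6 promoter windows were chosen after values were seen. Tested on simulated data, the fit recovered 4%, 56%, 82% and 100% of 50 genes changed by 0.5, 1, 2 and 4 (log2) and called 10 of 17993 unchanged genes. The simulation changed far fewer genes than were called here and used the same SD in both groups. Its rates therefore do not give the power of this comparison.

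Alternatives were other pseudocounts, scalings, probe set summaries and variance models, a filter on dim genes, the replicate block, Y-linked level or signal, each array left out, and an exact Wilcoxon test. Of the marker lists, those of sinusoidal endothelium (5 genes), cholangiocytes (4 measured) and lymphocytes (5) had 0 higher each, with Stab2 and Clec4g lower. The other endothelial markers did not pass, with Pecam1 at 1.38, Lyve1 at 0.22 and Kdr at -0.38. Of the stellate list, Col1a1 was higher and Lrat and Dcn lower.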

Additional observations from a re-analysis of the deposited data

Results flagged for a closer look

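Among 60 sets of 6 values (30 members in 2 groups), 3 held a sample whose gap to its nearest neighbour was past Dixon's critical value for 6 (as a share of the whole range), about what chance gives at 1 in 20. Hsd17b7 in normal 3 was at 11.86, against 11.48 for the next normal liver. Sc5d in normal 4 was at 14.08, against 14.40 for the next. Dhcr7 in HCC 2 was at 12.84, against 12.06 for the next tumour. HCC 2 was also the highest tumour for Sqle, Lss, Nsdhl, Fdps and Sc5d.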

How the results depend on the processing

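The 7 calls kept their direction under all 24 alternatives, and over the 30 members 5 without a call changed sign in at least 1. Members higher, 2 in the comparison as reported, were 1 with a pseudocount of 1, the deposited scaling, median centring, the mean of all probe sets, the Y-linked level as covariate, and the exact Wilcoxon test. They were 4 with the filter on dim genes and with the trended and robust variance (Npc1 and Abca1 added), and 0 in the arrays without Y-linked signal. Members lower, 5 as reported, were 8 with that filter and with that variance (Hmgcs1, Mvd and Idi1 added). They were 4 with the exact Wilcoxon test (Hsd17b7 lost, adjusted p = 0.117). They were 0 in the arrays with Y-linked signal alone and in those without it, where fewer arrays were fitted. Calls over all genes grew too, so the larger counts are not particular to the members. That filter called 1432 higher and 1678 lower of 9689 genes, against 1179 and 1318 of 18193 as reported. That variance called 1380 higher and 1548 lower of 18193. With the replicate number as a block, 1 was higher (Scarb1) and 2 lower (Tm7sf2 and Pltp), with Msmo1, Hsd17b7 and Ebp at adjusted p = 0.0914, 0.0663 and 0.0627. The labels give no basis for pairing by number, and deviations of same-number arrays correlated at only -0.0147 to 0.0778. Leaving out 1 array gave 1 to 2 higher and 4 to 8 lower, with 8 lower without HCC 2. In that fit 1443 of all 18193 genes were lower. Sign changes: Sqle was at -0.31 in the arrays without Y-linked signal. Cyp51 was at -0.029 with median centring, -0.25 with the mean of all probe sets and -0.097 without Y-linked signal, and ran from -0.018 to 0.24 with 1 array left out. Nsdhl was at 0.019 in the arrays with Y-linked signal and ran from -0.18 to 0.048 with 1 array left out. Srebf2 was at 0.017 with the mean of all probe sets. Lrp1 was at -0.036 with median centring, -0.058 in the arrays with Y-linked signal, and ran from -0.035 to 0.20 with 1 array left out. Median centring moved the members' differences by -0.21 to 0.08 and the deposited scaling by -0.14 to 0.15. The cause was not tested. With 6 arrays per group, small differences are hard to detect.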
